A study of Mus musculus with 6 samples.

Results

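Fatty acid synthesis was examined through the genes that make long chain fatty acids from acetyl-CoA, in the cochleae of *Cmah*-null mice and their controls. The genes were chosen by symbol, as *Fasn*, *Acly*, *Acaca*, *Scd1*, *Scd2*, *Elovl6*, *Me1*, *Srebf1*, *Thrsp* and *Acss2*. Of these 10 genes, 8 matched an array symbol, with 10 of the 25697 probes and 8 of the 18138 gene symbols. *Acaca* was not matched, and *Me1* was listed under its older symbol, *Mod1*, and was found by its gene identifier (1 probe), so its values stand beside those of the 8 genes and are not counted with them. Both groups were mice aged 12 months, of the strain C57BL/6 in the labels and C57BL/6J in the study's methods, 3 wild type (WT) and 3 with the *Cmah* gene disrupted (*Cmah*-null). The methods name the knockout allele as tm1Ykoz, and no further allele or treatment was given. *Cmah* encodes the enzyme that turns the sialic acid Neu5Ac into Neu5Gc, and mice that lack it lose hearing with age. The labels gave neither the sex of the mice nor whether a sample was 1 animal or a pool, so the p-values measure the spread between these samples. Total RNA of each sample was read on 1 Illumina MouseRef-8 v2 array, where a level is the log2 of a probe's mean bead signal after quantile normalization, which gives all arrays the same distribution of signals.

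Cells make fatty acids in the cytosol. Acly splits citrate, and Acss2 activates acetate, to give acetyl-CoA. Acaca carboxylates it to malonyl-CoA, and Fasn builds palmitate from both, with NADPH that Me1 helps to supply. Elovl6 lengthens palmitate, and the desaturases Scd1 and Scd2 place a double bond in the product. Srebf1 is the transcription factor that drives most of these genes, and Thrsp is a nuclear and cytosolic protein that follows and promotes lipogenesis. The products feed triglyceride storage in fat cells and the lipid-rich membranes of myelin, and Scd1 is also abundant in sebaceous glands.

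With a detection p under 0.05 against the negative controls, the arrays detected from 13873 to 15223 probes. The *Cmah* probe was detected on 1 WT and 2 *Cmah*-null arrays and did not check the genotype. *Cmah*-null replicates 1 and 2 were the closest pair, with an SD of 0.14 for their log2 differences against 0.39 to 0.85 for the other pairs, and 23.4% of the probes detected on all 6 arrays differed between them by more than 2 bead errors against 55.9% to 82.1% for the others. They were kept as 2 samples, as the labels list them. *Cmah*-null replicate 3 stood apart, with an SD of 0.76 to 0.85 against every other array. The arrays of WT replicate 1 and *Cmah*-null replicates 1 and 2 carried fewer beads per probe (medians of 34, 32 and 32) than the other 3 (39, 39 and 38). Of the markers of the organ, *Tectb* and *Tyr* of the cochlear duct, *Pou4f3*, *Slc26a5* and *Strc* of hair cells and *Nefl* and *Snap25* of neurons were detected on no array, while 9 of 13 cochlear duct and 6 of 10 hair cell genes were detected on all 6.

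*Scd1*, the stearoyl-CoA desaturase of fat cells and sebaceous glands, was the 1 fatty acid synthesis gene that passed 1.5-fold with an unadjusted p under 0.05, and it was 2.08-fold lower in *Cmah*-null cochleae. *Acly* and *Acss2*, the enzymes that supply cytosolic acetyl-CoA, were also lower on every *Cmah*-null array than on any WT array, by 1.32-fold and 1.37-fold, without passing that threshold. *Scd2*, the desaturase of brain and other tissues, had a log2 fold change of 0.38 on the side of *Cmah*-null. *Fasn*, *Srebf1*, *Elovl6* and *Thrsp* overlapped between the groups. With the brightest probe taken for each gene, 7 of the 8 log2 fold changes were below 0, against 46.9% of all genes. When the arrays were scaled to a common median instead, 4 of the 8 were below 0, against 45.4% of all genes, but that scaling moved the median of the probes detected on all 6 arrays from 0.03 to 0.30. Below that median lay 7 of the 8 under both scalings, against 53.0% of all genes with quantile normalization and 69.7% with median scaling. By probe, 1 of 10 was called, against 2.71% of all probes. The 1 gene called of 8 stands beside 3.07% of all genes called in either direction and 1.46% called lower (1.61% were called higher), and the 3 genes whose groups did not overlap on the lower side stand beside 6.67% of all genes. No probe on the array passed an adjusted p under 0.05 (limma, Benjamini-Hochberg over all probes; 2199 of 25697 probes, or 8.56%, had an unadjusted p under 0.05), and the smallest adjusted p was 0.25.

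**Figure D1:**
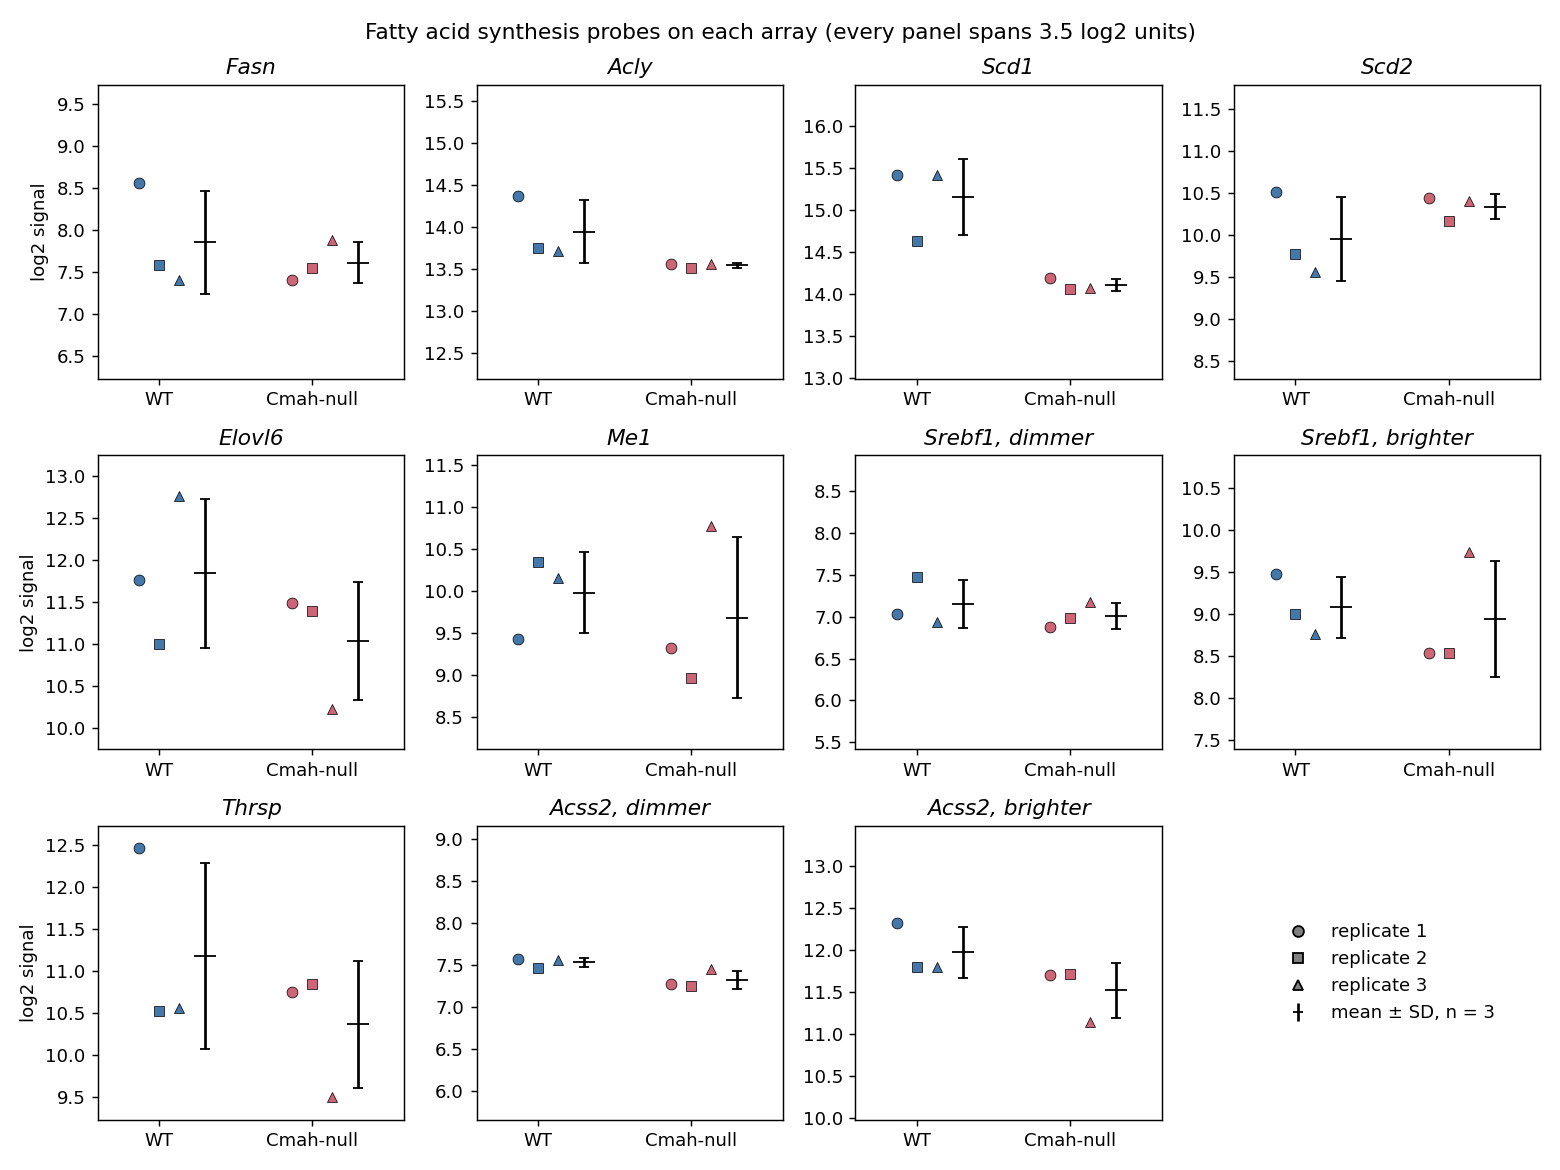
Log2 signal (y axis, quantile normalized) of each fatty acid synthesis probe in WT (blue) and *Cmah*-null (red) cochleae, 1 point per array with the shape giving the replicate number, and the mean ± SD (n = 3) as a black bar; each panel spans the same number of log2 units. The 3 *Cmah*-null points of *Scd1* lie between 14.06 and 14.19, below the WT points at 14.63 and 15.42, while WT replicate 1 is the highest point of *Thrsp*, *Acly*, *Fasn* and the brighter *Acss2* probe.

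The log2 signal of *Scd1* (ILMN_1237375, band 19qC3 of chromosome 19) was 15.42, 14.63 and 15.42 in WT replicates 1 to 3 and 14.19, 14.06 and 14.07 in *Cmah*-null replicates 1 to 3. All *Cmah*-null arrays lay below all WT arrays, and they differed among themselves far less (SD 0.07, n = 3) than the WT arrays did (SD 0.46, n = 3). The log2 fold change was -1.06 (SE 0.23, 95% confidence interval -1.62 to -0.49), with an unadjusted p of 0.00399 and an adjusted p of 0.399 (limma, Benjamini-Hochberg). *Scd1* was among the brightest probes of every array, where it ranked 30, 89 and 30 of 25697 in WT and 155, 182 and 178 in *Cmah*-null samples. Since quantile normalization sets a level by its rank, WT replicates 1 and 3 with the same rank have the same value. Before normalization, the bead signals were 46045, 20631 and 33144 in WT and 26384, 21685 and 15613 in *Cmah*-null samples, so that WT replicate 2 lay below *Cmah*-null replicates 1 and 2. With median scaling the same 2 arrays reached 14.60 and 14.37, above the 14.33 of WT replicate 2, and the log2 fold change of *Scd1* was -0.63 and no longer passed the threshold. The call held in the other alternatives, and without WT replicate 2 the value was -1.32.

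*Scd2* lies in the same band, 19qC3, and its probe (ILMN_2919259) gave 10.52, 9.78 and 9.56 in WT and 10.44, 10.17 and 10.41 in *Cmah*-null samples. WT replicate 1 was as high as the *Cmah*-null arrays, and the other WT arrays were lower than all of them. The log2 fold change was 0.38 (SE 0.26, 95% confidence interval -0.26 to 1.02; adjusted p = 0.718 by limma with Benjamini-Hochberg), an interval that does not meet that of *Scd1*; the difference between the 2 genes was not tested. Without WT replicate 1 the log2 fold change of *Scd2* was 0.67 and passed 1.5-fold with p, on the higher side. Across the 6 arrays, which share 1 normalization, the levels of *Scd1* and *Scd2* had a Pearson r of -0.36. The 2 genes encode closely related enzymes, so the first 30 of the 50 bases of each deposited probe are shown to let the probes be compared, with capitals for the bases that are the same at the same position:
Scd1 probe: cCAGtcaaagtgCaaGactaCctacccact
Scd2 probe: gCAGgattgcctCtgGggacCtcgttttgg
End to end, 8 of the 50 bases were identical, and the longest run of bases that both probes held anywhere was 5, so the probes read different stretches.

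*Acly* (ILMN_1240770, 11qD), the ATP citrate lyase, gave 14.37, 13.75 and 13.71 in WT and 13.56, 13.51 and 13.56 in *Cmah*-null samples. The groups did not overlap, but the lowest WT array lay close above the highest *Cmah*-null array, and WT replicate 1 carried much of the difference. The log2 fold change was -0.40 (SE 0.19, 95% confidence interval -0.87 to 0.06; adjusted p = 0.625 by limma with Benjamini-Hochberg), and it was -0.19 without WT replicate 1. *Acss2*, the cytosolic acetyl-CoA synthetase, had 2 probes on band 2qH1. The brighter (ILMN_2734181) gave 12.32, 11.80 and 11.80 in WT and 11.70, 11.72 and 11.14 in *Cmah*-null samples. Its log2 fold change was -0.45 (SE 0.22, 95% confidence interval -1.0 to 0.10; adjusted p = 0.637 by limma with Benjamini-Hochberg), and it was -0.28 without WT replicate 1 and -0.26 without *Cmah*-null replicate 3. The dimmer (ILMN_1231116), detected on 2 WT arrays and on no *Cmah*-null array, gave 7.57, 7.47 and 7.56 against 7.28, 7.25 and 7.45, too near background for its difference to be read. With median scaling, *Acly* stood at 0.07 and the brighter *Acss2* probe at 0.03, and the groups of both overlapped.

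*Thrsp* (ILMN_1256775, 7qE1) gave 12.46, 10.52 and 10.55 in WT and 10.75, 10.84 and 9.49 in *Cmah*-null samples. WT replicate 1 was far above and *Cmah*-null replicate 3 below the other 4 arrays, which lay together. The log2 fold change was -0.81 (SE 0.65, 95% confidence interval -2.41 to 0.78; adjusted p = 0.751 by limma with Benjamini-Hochberg), and without WT replicate 1 it was -0.17. *Elovl6* (ILMN_2614752, 3qG3), the elongase that acts on palmitate, gave 11.76, 11.0 and 12.77 in WT and 11.49, 11.40 and 10.23 in *Cmah*-null samples. Here WT replicate 3 was the highest array and *Cmah*-null replicate 3 the lowest, and WT replicate 2 lay within the *Cmah*-null range. Its log2 fold change was -0.80 (SE 0.55, 95% confidence interval -2.15 to 0.54; adjusted p = 0.718 by limma with Benjamini-Hochberg), and without WT replicate 3 and without *Cmah*-null replicate 3 it was -0.34 and -0.40.

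*Fasn* (ILMN_2874104, 11qE2), the synthase itself, was dim on these arrays and was detected on 2 WT and 2 *Cmah*-null arrays. It gave 8.56, 7.59 and 7.41 in WT and 7.40, 7.55 and 7.88 in *Cmah*-null samples, with WT replicate 1 above the rest. The log2 fold change was -0.25 (SE 0.32, 95% confidence interval -1.05 to 0.56; adjusted p = 0.855 by limma with Benjamini-Hochberg), and it was 0.11 without WT replicate 1. The brighter probe of *Srebf1* (ILMN_2792089, 11qB2) gave 9.48, 9.0 and 8.76 in WT and 8.54, 8.54 and 9.74 in *Cmah*-null samples. *Cmah*-null replicate 3 was the highest of the 6 arrays and the other *Cmah*-null arrays were the lowest. Its log2 fold change was -0.14 (SE 0.38, 95% confidence interval -1.08 to 0.80; adjusted p = 0.936 by limma with Benjamini-Hochberg), and -0.54 without *Cmah*-null replicate 3. The other *Srebf1* probe (ILMN_2696876) was detected on 0 arrays, with levels from 6.87 to 7.47. *Me1* (ILMN_2937261, 9qE3.1), the cytosolic malic enzyme, gave 9.43, 10.35 and 10.16 in WT and 9.32, 8.96 and 10.77 in *Cmah*-null samples. Its replicate 3 was the highest *Cmah*-null array here too, and the log2 fold change was -0.30 (SE 0.52, 95% confidence interval -1.57 to 0.98; adjusted p = 0.894 by limma with Benjamini-Hochberg). Without that array *Me1* was at -0.84 and passed 1.5-fold with p, on the lower side.

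Both sets of arrays by bead number held both genotypes, which allowed the comparison within each. Each comparison rests on 1 array of a genotype, WT replicate 1 in the set with fewer beads and *Cmah*-null replicate 3 in the other. In the set with fewer beads (1 WT and 2 *Cmah*-null arrays) the *Cmah*-null minus WT log2 difference of *Scd1* was -1.30, and in the set with more beads (2 WT and 1 *Cmah*-null) it was -0.96. The brighter *Acss2* probe, at -0.61 and -0.66, and *Thrsp*, at -1.66 and -1.04, were also lower within both sets. For both probes these single arrays were the highest and the lowest of all arrays, so the sets do not show the difference apart from them. Without WT replicate 1 *Thrsp* was at -0.17. *Acly* was at -0.83 and -0.18, and *Elovl6* at -0.32 and -1.65. *Scd2*, *Fasn*, the brighter *Srebf1* probe and *Me1* had opposite signs in the sets, from -0.22 to 0.74, from -1.09 to 0.38, from -0.94 to 0.86 and from -0.29 to 0.52. With the bead set as a block, *Thrsp* (-1.35) and *Acss2* (-0.64) passed 1.5-fold with p beside *Scd1*. This fit rests on the same differences within the sets.

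The median log2 fold change of the 8 genes was -0.43, against 0.01 over all genes. It was -0.18 without WT replicate 1 and -0.14 with median scaling, a scaling that shifted the detected probes as given above. Relative to the median of the probes detected on all 6 arrays, the 8 genes were at -0.44 with median scaling and at -0.45 with quantile normalization, and *Scd1* was at -0.93 and -1.08. On the same footing, the median of all genes was at -0.26 with median scaling and at -0.01 with quantile normalization. The 8 genes thus lay less far below all genes with median scaling. *Acly* and *Acss2*, at -0.23 and -0.27 with median scaling, lay close to the median of all genes.

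The arrays did not share 1 order for all genes. With each of the 7 probes that were detected on all 6 arrays (the brightest of a gene) centred on its mean, their average was 0.69, -0.14 and 0.15 in WT and -0.12, -0.18 and -0.41 in *Cmah*-null samples, so WT replicate 2 lay within the *Cmah*-null range. *Thrsp* and *Acss2* ran most alike (Pearson r of 0.95 over 6 arrays), and *Acly* followed both (0.83 and 0.81). WT replicate 1 was the highest array of each of these genes (*Thrsp* 12.46, *Acss2* 12.32, *Acly* 14.37), and r values without it were not computed. *Srebf1* had r values of -0.04 with *Thrsp* and -0.16 with *Acss2*. These r values describe 6 arrays of both genotypes that share 1 normalization. Among 12402 other probes detected on all arrays, those most like *Fasn* were of *Cyhr1*, *Capn2*, *Sars2*, *2210010L05Rik* and *Uchl1* (r from 0.987 to 0.992). Those most like the average of the members were of *Ddx6*, *Chpt1* (2 probes), *Myh11* and *Faim* (0.981 to 0.988). The highest r values picked from so many probes over 6 arrays are high by selection. *Fasn* itself was detected on only 2 WT and 2 *Cmah*-null arrays, with WT replicate 1 above the rest.

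The 250 bases before the annotated start of *Acly*, *Acss2* and *Thrsp* are shown. These 3 genes had the highest r values with each other among the members, with WT replicate 1 the highest array of each. The sequences are from RefSeq (GRCm38.p6), at chr11:100528001-100528250 on the minus strand for *Acly*, chr2:155517793-155518042 on the plus strand for *Acss2* and chr7:97417551-97417800 on the minus strand for *Thrsp*. Capitals mark a CCAAT box (CCAAT) or a GC box (GGGCGG) on either strand:
Acly: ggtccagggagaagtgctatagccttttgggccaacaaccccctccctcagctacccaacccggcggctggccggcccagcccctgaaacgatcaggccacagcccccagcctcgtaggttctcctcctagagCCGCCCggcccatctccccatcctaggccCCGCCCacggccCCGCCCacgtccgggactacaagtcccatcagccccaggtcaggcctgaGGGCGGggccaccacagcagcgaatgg
Acss2: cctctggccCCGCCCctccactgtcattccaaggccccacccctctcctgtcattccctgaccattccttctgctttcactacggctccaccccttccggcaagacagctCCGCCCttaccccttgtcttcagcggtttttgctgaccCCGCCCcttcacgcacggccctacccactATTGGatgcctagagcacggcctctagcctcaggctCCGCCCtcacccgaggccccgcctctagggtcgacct
Thrsp: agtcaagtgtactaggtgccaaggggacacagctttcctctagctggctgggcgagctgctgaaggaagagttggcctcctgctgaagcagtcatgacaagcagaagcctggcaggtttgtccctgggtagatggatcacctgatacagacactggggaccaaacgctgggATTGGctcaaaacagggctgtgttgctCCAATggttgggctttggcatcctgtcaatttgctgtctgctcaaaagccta
*Acly* held 4 GC boxes and no CCAAT box, *Thrsp* 2 CCAAT boxes and no GC box, and *Acss2* held both, with 1 CCAAT box. The table held such windows for 8 of the 10 named genes (11 windows), and none for *Scd1* or *Scd2*. A CCAAT box was in 6 of these 11 windows, against 33.8% of 32851 windows of all genes, and a GC box in 5 of 11, against 32.7%. The sterol regulatory element, the site bound by Srebf1, was searched as TCACNCCAC, and the E-box as CACGTG, on both strands; neither was in any of the 11 windows, against 1.05% and 6.02% of all windows.

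The steps next to fatty acid synthesis were read from 5 lists of genes, 1 probe per gene (the brightest). The clearest counts were in acyl-CoA and triglyceride synthesis, which activates fatty acids and joins them to glycerol. There 4 of 19 matched genes passed 1.5-fold with p, all lower in *Cmah*-null samples (1.46% of all genes did), 8 of 19 had groups that did not overlap on the lower side (6.67% of all genes) and the median log2 fold change was -0.29. *Dgat2*, the enzyme that completes triglyceride, gave 14.16, 13.07 and 13.11 in WT and 11.86, 12.18 and 12.58 in *Cmah*-null samples, a log2 fold change of -1.24 (SE 0.35; adjusted p = 0.479 by limma with Benjamini-Hochberg). *Acsl5*, a long chain acyl-CoA synthetase, gave 12.86, 12.61 and 13.11 against 12.25, 12.18 and 11.92, a log2 fold change of -0.74 (SE 0.16; adjusted p = 0.397 by limma with Benjamini-Hochberg). These 2 genes were the ones furthest from overlap between their groups among the 4. *Acsl1*, the main acyl-CoA synthetase of fat cells, gave 11.65, 10.31 and 11.31 in WT and 9.93, 10.27 and 10.28 in *Cmah*-null samples (log2 fold change -0.93, SE 0.35), so that its lowest WT array was barely above the *Cmah*-null ones. *Agpat3*, an acyltransferase of the glycerol backbone, gave 9.48, 9.54 and 9.99 against 8.81, 8.67 and 9.42 (log2 fold change -0.71, SE 0.24). *Dgat2* and *Acsl5* passed in all 6 fits that left 1 array out. *Agpat3* was lost in 3 of them, and *Acsl1* in 5, all but the fit without WT replicate 2. The list had 2 called genes without WT replicate 3, without *Cmah*-null replicate 1 and with *Cmah*-null replicates 1 and 2 averaged. With median scaling none of the 4 passed, *Agpat4* and *Agpat5* passed on the higher side, and the median of the list was -0.23.

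**Figure D2:**
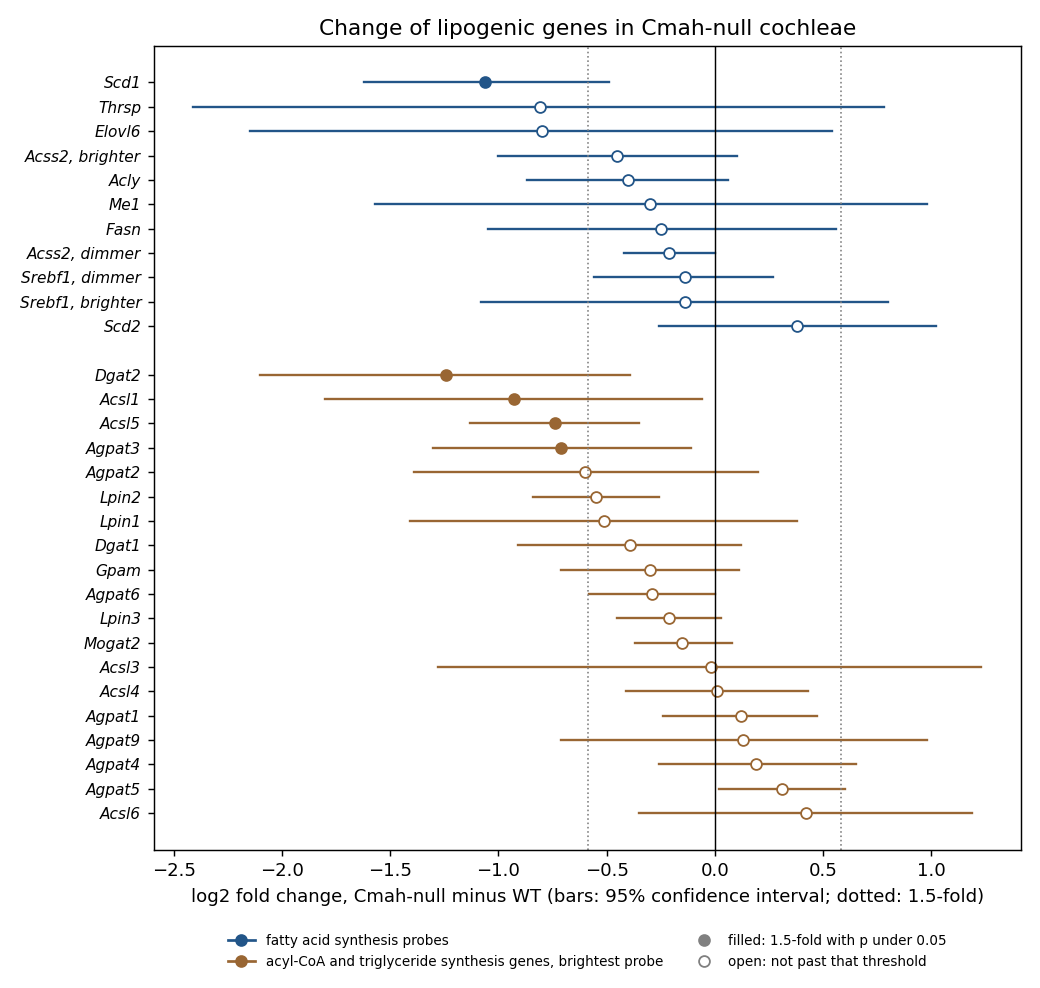
Log2 fold change (x axis, *Cmah*-null minus WT) with its 95% confidence interval for each fatty acid synthesis probe (blue) and each acyl-CoA and triglyceride synthesis gene (brown), with dotted lines at 1.5-fold and filled points for those at 1.5-fold with an unadjusted p under 0.05. The filled points, *Scd1* at -1.06, *Dgat2* at -1.24, *Acsl1* at -0.93, *Acsl5* at -0.74 and *Agpat3* at -0.71, are all on the lower side.

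The other lists had 2 called genes in all. Among the other synthesis, elongation and desaturation enzymes, 1 of 20 was called lower and 0 higher (1.46% and 1.61% of all genes were), with a median of -0.06. The called gene was *Ptpla*, a dehydratase of the elongation cycle, at 11.38, 11.30 and 10.11 in WT and 10.16, 10.18 and 9.33 in *Cmah*-null samples (log2 fold change -1.04, SE 0.42), with groups that overlapped and a call that was lost in 5 of the 6 fits without 1 array. *Elovl4*, an elongase of very long chains, had the largest difference of that list (-1.07, SE 0.72, adjusted p = 0.718 by limma with Benjamini-Hochberg). *Fads1*, *Fads3* and *Scd4* had *Cmah*-null arrays all above WT (10.0% of all genes did), at 0.48, 0.34 and 0.30. *Scd4*, at 7.15 to 7.74, was detected on 1 WT and 2 *Cmah*-null arrays, too near background for its difference to be read. Of 11 genes of NADPH supply none was called (median -0.05; *Idh1* was called lower with the replicate block and with the bead block), and *Idh1*, cytosolic isocitrate dehydrogenase, was at -1.01 (SE 0.50; adjusted p = 0.64 by limma with Benjamini-Hochberg) and *Tkt*, transketolase, at -0.43. *Idh1* gave 11.50, 10.67 and 10.66 in WT and 10.46, 10.47 and 8.89 in *Cmah*-null samples, which did not overlap.

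Of 17 regulators of lipogenic transcription and of acetyl-CoA carboxylase, 1 was called lower and 0 higher (1.46% and 1.61% of all genes were), with a median of 0.00. It was *Prkaa2*, a catalytic subunit of the AMP-activated kinase that inhibits acetyl-CoA carboxylase, at 9.66, 10.05 and 8.97 in WT and 8.28, 8.58 and 8.03 in *Cmah*-null samples. The groups did not overlap, and the log2 fold change was -1.26 (SE 0.30; adjusted p = 0.422 by limma with Benjamini-Hochberg). *Insig1*, which holds the Srebf proteins in the endoplasmic reticulum, was at -0.61 (SE 0.26; adjusted p = 0.595 by limma with Benjamini-Hochberg). *Srebf2*, the paralog of *Srebf1* that drives sterol synthesis, was higher on all *Cmah*-null arrays (10.0% of all genes were), at 0.45. None of 13 genes of sterol synthesis and uptake was called (median -0.19), with *Cyp51* at -0.48 and *Idi1* at -0.35. Among them *Pmvk*, *Mvd* and *Lss* were lower on all *Cmah*-null arrays (6.67% of all genes were), by log2 fold changes of -0.19 to -0.30.

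Cochlear dissection can carry fat, myelin, bone, muscle and skin, and several of these tissues use the same enzymes. Fat cell markers were lower in 12 of 14 genes, with *Lep* (-1.49) and *Pparg* (-1.19) called and a median of -0.34. Over all genes, 46.9% were lower, 1.46% were called lower and 1.61% called higher, shares that stand beside the counts of each marker list. No fat cell marker was called with median scaling, without WT replicate 1 or without WT replicate 3. Without WT replicate 2, 5 were called, and 3 with the replicate block and with the bead block. The 3 brightest, *Cfd*, *Lpl* and *Pnpla2*, were at 0.26, -0.27 and -0.28. The log2 of the summed fat cell signals was 16.19 to 16.85 in WT and 16.25 to 16.48 in *Cmah*-null samples, which overlapped, and *Retn* was detected on no array. Brown fat cell markers were lower in 9 of 10 genes, *Dio2* (-0.06) among them, and 5 were called lower, against 46.9% and 1.46% of all genes. The called markers were *Ucp1* (-2.11), *Cidea* (-2.01), *Cox7a1* (-1.54), *Cox8b* (-1.44) and *Ppargc1a* (-0.65). With median scaling 2 were called, *Ucp1* and *Cidea*, and the median moved from -0.67 to -0.35, and 3 were called without WT replicate 2 and without WT replicate 3. Their summed level was 15.59 to 16.35 in WT and 14.23 to 14.88 in *Cmah*-null samples, without overlap. The brightest were *Cox8b*, *Cox7a1* and *Cpt1b* (-0.69, not called), and *Dio2* and *Prdm16* were detected on no array. The study also lists *Cox8b* and *Cox7a1* among its genes of cardiac muscle contraction, so the sum of the list does not read brown fat alone. Over the 6 arrays of both genotypes, *Acss2*, *Scd1*, *Acly* and *Thrsp* had r values of 0.90, 0.82, 0.82 and 0.76 with this sum, and *Elovl6* followed the fat cell sum (0.93). These values, and those with the myelin and neuron sums below, were picked from 7 members and 10 marker lists and are high by selection. Of similar size were those of *Acly* with the epidermis and sebaceous gland sum (-0.85) and the cochlear duct sum (-0.82). The part of brown fat, other fat or muscle in the levels of *Scd1*, *Acly*, *Acss2* and the triglyceride enzymes was not tested. In such bulk samples fewer cells of a type and less RNA per cell cannot be told apart.

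Myelinating cell markers were lower in 10 of 13 genes, 1 of them called (*Mal*, -0.67), against 46.9% and 1.46% of all genes, with a median of -0.38. This median turned to 0.14 without WT replicate 1 and to 0.10 with median scaling. Relative to the shift of each scaling, it was at -0.20 with median scaling and at -0.40 with quantile normalization. The median of all genes was at -0.26 and -0.01 on that footing. Of the myelinating cell markers, the following were also read. *Mbp* and *Cldn11*, among the brightest of these markers, were at -0.01 and 0.15. Their summed level was 15.78 to 16.91 in WT and 15.90 to 16.05 in *Cmah*-null samples. WT replicate 1 held the highest myelin sum, 16.91, as it held the highest *Acly* and *Thrsp*, and *Acly*, *Thrsp* and *Acss2* had r values of 0.89, 0.88 and 0.75 with that sum (n = 6). Epidermis and sebaceous gland markers were higher in 7 of 9 genes, with *Sprr1a* called (1.64). Of the fits without 1 array, only that without WT replicate 3 kept this call. The brightest, *Lor*, *Krt14* and *Krt10*, were at 0.91, 0.89 and 1.14. The sum of the list was 14.87, 15.37 and 16.82 in WT against 16.57 to 16.75 in *Cmah*-null samples. *Mc5r* and *Scd3*, markers of sebaceous glands, were detected on no array, and *Scd1* had an r of -0.47 with that sum (n = 6). Skeletal muscle markers were lower in all 12 genes, though *Myh2* only at -0.0, with none called. Their summed level was 17.69 to 18.60 in WT and 17.82 to 17.86 in *Cmah*-null samples. Without WT replicate 3, 7 muscle markers were called, and 2 were called without *Cmah*-null replicate 3. Bone markers were lower in 6 of 8 (14.58 to 16.73 against 15.09 to 15.30, *Sost* on no array). Of hair cell genes 8 of 10 were higher, among them *Pou4f3* and *Slc26a5*, which were detected on no array. *Atp2b2*, a calcium pump, was called (0.76), and of the fits without 1 array only that without WT replicate 1 kept the call. It was also lost with the replicate block, with the bead block and with *Cmah*-null replicates 1 and 2 averaged. Of blood and marrow genes 7 of 10 were lower with none called. Cochlear duct genes had a median of 0.03, and of neuron genes 8 of 9 were lower with *Prph* called (-1.37), while *Scd2* followed the neuron sum (r of 0.88, n = 6). What these tissues contribute to the fatty acid synthesis genes was not tested.

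**Figure D3:**
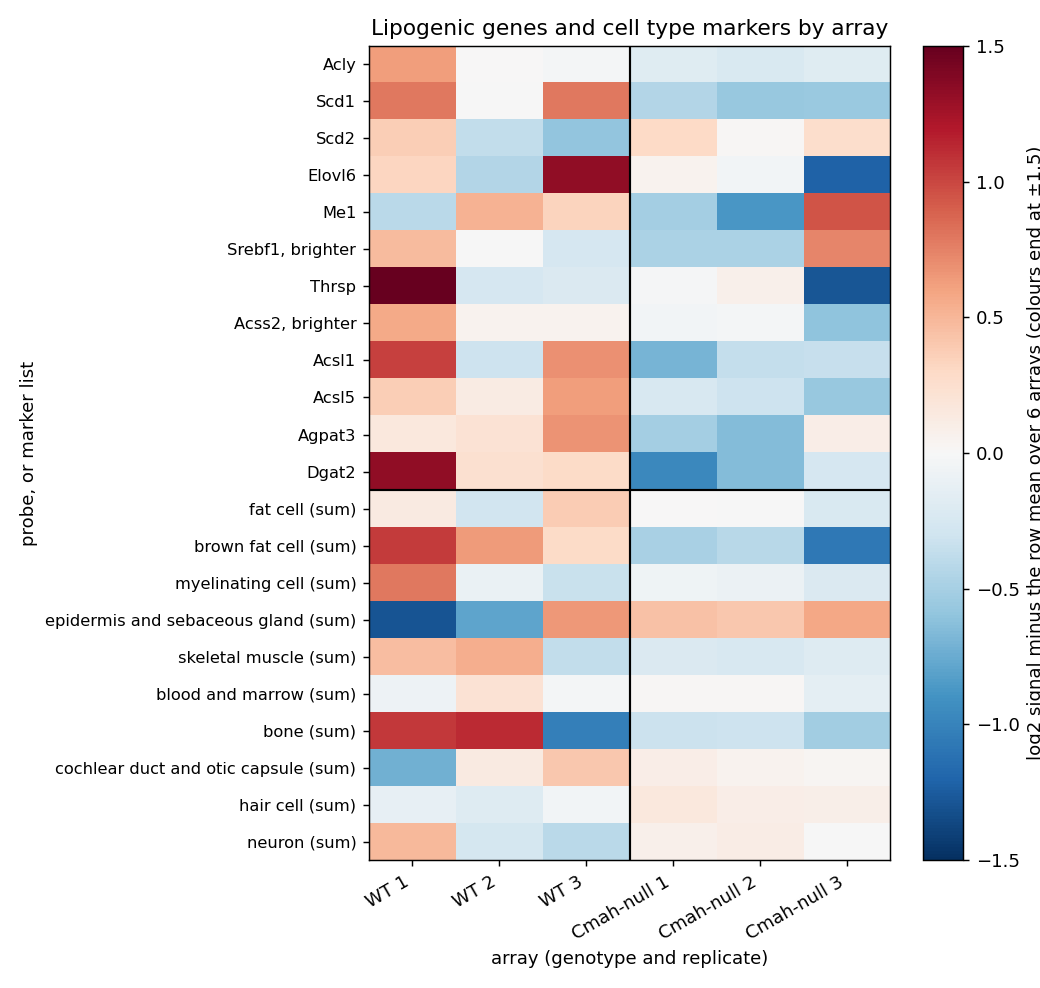
Log2 signal of each probe, or of the summed signal of each marker list, minus its mean over the 6 arrays (colour scale in log2 units, ending at plus and minus 1.5), with arrays as columns (3 WT left, 3 *Cmah*-null right of the line) and genes above, marker lists below the line. The brown fat sum (15.59 to 16.35 against 14.23 to 14.88), *Scd1*, *Acsl5* and *Dgat2* split by genotype, while *Thrsp* is dark in WT replicate 1 (12.46) and *Elovl6* in WT replicate 3 (12.77).

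Across 12 or 13 alternatives per probe, *Scd1* ranged from -1.32 to -0.63, *Thrsp* from -1.35 to -0.17, *Elovl6* from -1.22 to -0.31 and *Scd2* from 0.19 to 0.78, and none of these 4 turned its sign. *Fasn*, *Acly*, the brighter *Acss2* probe, both *Srebf1* probes and *Me1* did so in at least 1 alternative, with values no higher than 0.11.

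**Figure D4:**
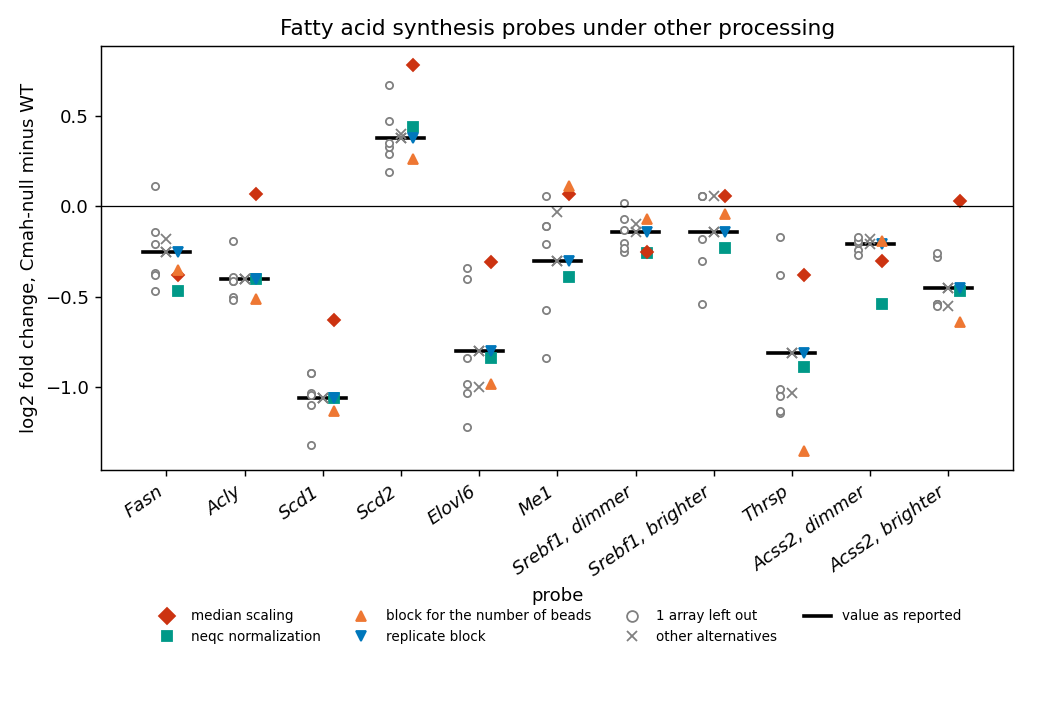
Log2 fold change (y axis, *Cmah*-null minus WT) of each fatty acid synthesis probe as reported (black line) and under each alternative (symbols: other scalings, blocks, 1 array left out and the rest). *Scd1* stays between -1.32 and -0.63 and *Scd2* between 0.19 and 0.78, while median scaling moves *Acly* to 0.07 and *Acss2* to 0.03.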

How the data were processed

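Cochlear RNA of 3 WT- and 3 *Cmah*-null mice was hybridized to MouseRef-8 v2 arrays. The deposited raw table gives intensity values, the mean bead signal per probe, with its bead standard error and number of beads. Its detection p-value was exported by the authors' scanner software against negative controls. The deposited log2 values are quantile-normalized by the authors, and were checked to equal quantile-normalized log2 signals (largest difference 5e-07). The columns of 1 genotype are named "old" there and were taken as *Cmah*-null, since the others are named WT. Fold changes and p-values of the authors' own comparison, and 12 columns of repeated signals, were not used.

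The log2 values were compared with limma 3.58.1 in R 4.3.3 (functions lmFit and eBayes) without covariates, two-sided, and p-values were adjusted over 25697 probes by the Benjamini-Hochberg method. Called probes passed 1.5-fold with an unadjusted p under 0.05. The members and lists were chosen with earlier results of these data known. Named genes were all members, the called genes and 2 largest changes of each pathway list, the called markers with the 3 brightest of the fat, myelin and skin lists (1 of these, and those of the other lists, are not reported here), and the probes most like the members; any other gene was named with its values in view. On simulated arrays with 200 changed probes, 178 were called at a log2 change of 1 and 198 at 2, beside 364 and 380 false calls; 98 and 177 passed the adjusted threshold, beside 10 false calls each. The alternatives were neqc (offset 16), median scaling, a filter on detection, blocks by replicate number and by bead number (median under 35), trend and robust variance, averaging *Cmah*-null replicates 1 and 2, each array left out, and means over probes. The number of arrays limits the precision. Python 3.11.15 with matplotlib 3.10.9 drew the figures.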

Additional observations from a re-analysis of the deposited data

How the results depend on the processing

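The number of probes at 1.5-fold with p, 697 as reported, was 1482 when neqc was used, 2488 under median scaling, 1728 when bead number was a block and 429 to 1037 with 1 array left out, lowest without WT replicate 2. The share of calls on the higher side was 47.9% as reported and 96.8% with median scaling. At an adjusted p under 0.05 (limma, Benjamini-Hochberg), 3 probes passed with the bead block and none under the other alternatives. Of the fatty acid synthesis probes, 0 were called under median scaling, 3 when bead number was a block and 1 to 2 with 1 array left out. The second probe was *Scd2* without WT replicate 1, and *Me1*, which is not counted, passed without *Cmah*-null replicate 3. Of the pathway genes, 6 as reported, 13 were called under median scaling, 11 when bead number was a block, 3 with *Cmah*-null replicates 1 and 2 averaged and 3 to 9 with 1 array left out, the lowest without *Cmah*-null replicate 1. Signs turned with median scaling for *Acly* (0.07), *Me1* (0.07), *Srebf1* (0.06) and *Acss2* (0.03); with the bead block for *Me1* (0.11); with the averaged replicates for *Srebf1* (0.06); without WT replicate 1 for *Fasn* (0.11) and *Srebf1* (0.06); without WT replicate 2 for the dim *Srebf1* probe (0.02); without *Cmah*-null replicate 1 for *Srebf1* (0.06); and without *Cmah*-null replicate 2 for *Srebf1* (0.06) and *Me1* (0.06). With 1 array left out, *Fasn* ranged from -0.47 to 0.11, *Me1* from -0.84 to 0.06, the dim *Srebf1* probe from -0.25 to 0.02 and the bright one from -0.54 to 0.06. The causes were not tested. The median of the members kept its sign throughout, from -0.57 to -0.14.

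Arrays of the same replicate number did not deviate together (r of 0.02, -0.17 and 0.01), so the numbers do not pair the samples. With the replicate number as a block, 811 probes passed 1.5-fold with p, no fatty acid synthesis probe changed its call, and of the pathway genes *Acsl1* was lost and *Idh1* gained, so that 6 were called. *Fasn*, the dim *Acss2* probe and the dim *Srebf1* probe were near background, where quantile-normalized signals without background subtraction understate a change.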
